A study of Mus musculus with 9 samples.

Results

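The MHC class II presentation genes are the genes by which a cell loads peptides onto class II molecules and shows them to CD4 T cells. They were followed here in invariant natural killer T (iNKT) cells of the mouse thymus, with and without Utx. The 9 genes are H2-Aa, H2-Ab1, H2-Eb1, Cd74, Ciita, H2-DMa, H2-DMb1, H2-Oa and H2-Ob. Every probe set annotated to exactly 1 of them was used, which gave 16 probe sets for 8 of the 9 genes, of 45101 probe sets on the array. H2-DMb1 has no value below, because its probe sets are annotated to H2-DMb2 as well. The expression array compared 4 samples labelled Utx knockout (KO1 to KO4) with 5 labelled Utx wildtype (WT1 to WT5), all of thymic iNKT cells of animals aged 8 to 12 weeks. KO1 and WT1 came from batch 1, KO2, KO3, KO4 and WT2 from batch 2, and WT3, WT4 and WT5 from batch 3, per the titles. Utx, also written Kdm6a, encodes a demethylase of histone H3. The labels do not give the allele, any Cre driver, the strain or the gate of the sort. The labels call the samples biological replicates without saying whether each came from 1 animal, so the p-values measure the spread between these samples.

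A classical class II molecule is a pair of an alpha and a beta chain. In the mouse these are the A molecule, of the H2-Aa and H2-Ab1 chains, and the E molecule, whose beta chain is H2-Eb1. Cd74, the invariant chain, holds the groove of a new class II molecule and guides it to endosomes. There H2-DM, of the H2-DMa and H2-DMb1 chains, exchanges the last piece of Cd74 for a peptide, and H2-DO, of H2-Oa and H2-Ob, holds H2-DM back. Ciita is the coactivator that switches these genes on together, by docking onto factors bound to their promoters. Class II is known best from dendritic cells, B cells, macrophages and thymic epithelium, while resting T cells of the mouse are known for little of it.

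The docking site of Ciita is a module of short elements at a set spacing, the X box, bound by RFX with Creb1 beside it, and the Y box, bound by NF-Y. The sequences below show 120 bases, from position -150 to position -31 relative to the start of transcription, for the 4 genes in which a script found both cores, GCAAC of the X box and ATTGG of the Y box. They are reference sequence from RefSeq, build GRCm38.p6, each read 5′ to 3′ on the strand of its gene, and the capitals mark these 2 cores.
H2-Aa (chr17:34287854-34287973, minus strand): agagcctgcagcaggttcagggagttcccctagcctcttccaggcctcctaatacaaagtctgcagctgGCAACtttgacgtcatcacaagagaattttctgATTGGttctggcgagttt
H2-Eb1 (chr17:34305717-34305836, plus strand): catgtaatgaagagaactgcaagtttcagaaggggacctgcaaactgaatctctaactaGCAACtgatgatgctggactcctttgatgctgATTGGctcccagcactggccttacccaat
H2-Oa (chr17:34092229-34092348, plus strand): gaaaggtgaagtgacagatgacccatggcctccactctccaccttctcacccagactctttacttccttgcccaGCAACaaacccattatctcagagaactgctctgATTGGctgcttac
H2-Ob (chr17:34238755-34238874, plus strand): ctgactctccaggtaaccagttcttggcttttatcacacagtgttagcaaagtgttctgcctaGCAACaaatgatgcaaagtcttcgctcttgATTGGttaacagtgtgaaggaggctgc

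All 4 lie on chromosome 17. The first bases of the cores are 33 bases apart in H2-Aa and H2-Oa, 32 in H2-Eb1 and 30 in H2-Ob. Windows from 250 bases before to 50 after the start were at hand for 6 of the 9 genes, namely these 4, H2-DMa and H2-DMb1. GCAAC was found on either strand in windows of 5 of the 6 genes and ATTGG in windows of 6. The pair, GCAAC followed by ATTGG on 1 strand with 15 to 40 bases between their first bases, was in 4. Of 32851 promoter windows of that length in the same table, 35.2% held GCAAC, 37.4% held ATTGG and 1.22% held the pair. The spacing was chosen after the sequences had been seen, so the match is a description, and no array value enters it.

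The chains of the A molecule were higher in the knockout iNKT cells, H2-Ab1 by 4.26-fold and 5.16-fold on its called probe sets and H2-Aa by 3.56-fold and 2.33-fold on its own, and so were H2-Eb1 (2.74-fold) and Cd74 (2.56-fold). The probe sets of H2-Ab1 and H2-Aa that were not called had smaller differences or larger errors, given below. In the limma fit across all 45037 probe sets, with batch as a factor and Benjamini-Hochberg adjustment, 6 of the 16 probe sets were called higher and 0 lower at an adjusted p of 0.05. Over all probe sets that fit called 3.73% higher and 2.67% lower. At an unadjusted p under 0.05, 13 of the 16 were higher and 0 lower, against 6342 higher and 6379 lower of all 45037 probe sets. The median difference of the 16, knockout minus wildtype, was 1.19 on the log2 scale, against -0.00 over all probe sets, and 15 of the 16 differences were positive. In 11 of the 16 every knockout array lay above every wildtype array, an arrangement found in 15.7% of all probe sets. In bulk samples a different number of cells of a type and a different amount of RNA per cell cannot be told apart.

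**Figure D1:**
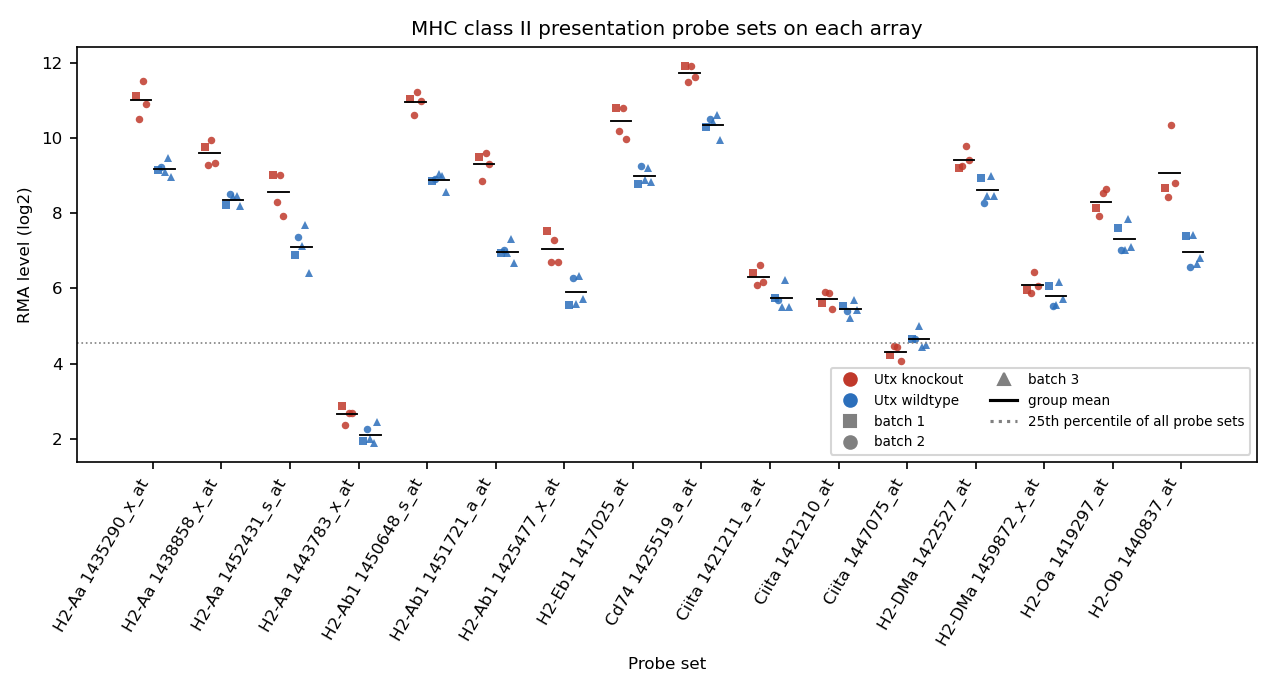
Deposited log2 level of the 16 class II probe sets on each array, with Utx knockout arrays on the left in red and Utx wildtype arrays on the right in blue, and marker shape giving the batch. The dotted line is the 25th percentile of all probe sets at 4.54. For 11 probe sets every knockout point lies above every wildtype point, and for 1 of Ciita the knockout points lie mostly below.

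H2-Ab1, the beta chain of the A molecule, had the smallest adjusted p of the class II probe sets. Its probe set 1450648_s_at read 11.04, 10.61, 11.24 and 10.99 (log2) in KO1 to KO4, against 8.86, 8.91, 9.04, 8.98 and 8.57 in WT1 to WT5. The lowest knockout array lay well above the highest wildtype array. The mean was 10.97 ± 0.26 in knockout (SD, n = 4) and 8.87 ± 0.18 in wildtype samples (SD, n = 5), and the fitted log2 difference was 2.09 (SE 0.22, 4.26-fold, limma adjusted p = 0.00537). The same gene's 1451721_a_at read 9.50, 8.86, 9.60 and 9.31 in knockout samples, against 6.94, 7.02, 6.95, 7.30 and 6.67 in wildtype samples. That is again a gap of more than 1 log2 unit between the groups, with a fitted difference of 2.37 (SE 0.26, 5.16-fold, adjusted p = 0.00572). Within batch 1 the differences of these probe sets were 2.18 and 2.57, and within batch 2 they were 2.03 and 2.23. Leaving out any 1 array kept both calls, with differences of 2.01 to 2.19 and of 2.23 to 2.57. In such fits, here and below, batch 1 alone gives the difference without WT2, which is then KO1 minus WT1. Without WT1 or without KO1 the fit is the same, and batch 2 alone gives the difference. Leaving out WT3, WT4 or WT5 changes the error but cannot change the difference. The third H2-Ab1 probe set, 1425477_x_at, read 7.53, 6.71, 7.27 and 6.71 in knockout samples, against 5.56, 6.27, 5.59, 6.32 and 5.71 in wildtype samples. Its groups did not overlap either, yet the difference of 1.16 (SE 0.34) did not pass (adjusted p = 0.0754), and it was 1.96 in batch 1 and 0.63 in batch 2.

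H2-Aa, the alpha chain that pairs with H2-Ab1, had 4 probe sets, of which 2 were called higher. By the naming of these arrays the suffix _x_at, carried by both called ones, by the third of H2-Ab1 and by that of H2-DMb2 described below, marks probes that can match other sequences. The brightest, 1435290_x_at, read 11.13, 10.51, 11.53 and 10.89 in knockout samples, against 9.16, 9.24, 9.11, 9.46 and 8.96 in wildtype samples. All knockout arrays stood more than 1 log2 unit above the wildtype arrays, and the difference was 1.83 (SE 0.29, 3.56-fold, adjusted p = 0.0135). 1438858_x_at read 9.76, 9.29, 9.96 and 9.35 in knockout samples, against 8.22, 8.52, 8.43, 8.45 and 8.18 in wildtype samples, a difference of 1.22 (SE 0.24, 2.33-fold, adjusted p = 0.0254). 1452431_s_at read 9.02, 8.29, 9.03 and 7.92 in knockout samples, against 6.88, 7.35, 7.14, 7.67 and 6.41 in wildtype samples. Here KO4 and WT4 came close, and the difference of 1.49 (SE 0.43) did not pass (adjusted p = 0.0722). The faint 1443783_x_at, with a mean under the 25th percentile of all probe sets, read 2.37 to 2.87 in knockout and 1.89 to 2.43 in wildtype samples. Its difference was 0.57 (SE 0.22, adjusted p = 0.141). The calls of H2-Aa depended on single arrays. Without WT2, the lone wildtype array of batch 2, 1435290_x_at had a difference of 1.97 with an adjusted p of 0.0679, and 1438858_x_at 1.54 with 0.0663. Without WT1 or KO1, which both leave the batch 1 comparison empty, 1438858_x_at had 1.01 with 0.0602. With quantile normalization it had 0.95 with 0.0667.

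H2-Eb1, the beta chain of the E molecule, had 1 probe set, at 10.79, 10.19, 10.80 and 9.98 in knockout samples, against 8.78, 9.25, 8.90, 9.20 and 8.83 in wildtype samples. The groups were apart, with KO2 and KO4 the lower knockout arrays. The mean was 10.44 ± 0.42 in knockout (SD, n = 4) and 8.99 ± 0.22 in wildtype samples (SD, n = 5), and the fitted difference was 1.45 (SE 0.29, 2.74-fold, adjusted p = 0.0276). Within batch 1 it was 2.01 and within batch 2 it was 1.08. This call ended without WT1 or KO1 (1.08, adjusted p = 0.0671), without WT3 (0.0505), without WT5 (0.0503) and without KO3 (1.34, 0.0562). It also ended with quantile normalization of the deposited values (adjusted p = 0.0685).

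Cd74 read 11.92, 11.49, 11.91 and 11.62 in knockout samples, against 10.29, 10.50, 10.42, 10.62 and 9.95 in wildtype samples. Every knockout array was above every wildtype array, and the fitted difference was 1.36 (SE 0.24, 2.56-fold, adjusted p = 0.0184). Batch 1 alone gave 1.63 and batch 2 alone 1.17. Without WT2 only the batch 1 difference of 1.63 was left, and it did not pass.

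Ciita, the coactivator of the whole set, was not called by any of its 3 probe sets, and they did not point one way. 1421211_a_at read 6.40, 6.08, 6.61 and 6.16 in knockout samples, against 5.75, 5.69, 5.52, 6.22 and 5.52 in wildtype samples. WT4 reached into the range of the knockout arrays, and the difference was 0.62 (SE 0.26, adjusted p = 0.156), with a 95% interval of 0.04 to 1.20 that reaches a 2-fold rise. 1421210_at read 5.62, 5.91, 5.88 and 5.44 in knockout samples, against 5.52, 5.40, 5.21, 5.70 and 5.43 in wildtype samples, with a difference of 0.24 (SE 0.21, 95% interval -0.24 to 0.72). The faint 1447075_at, with a mean near the 25th percentile of all probe sets and under it, read 4.22, 4.48, 4.44 and 4.07 in knockout samples, against 4.67, 4.64, 5.01, 4.43 and 4.49 in wildtype samples. It was the only class II probe set with a negative difference, -0.37 (SE 0.22, adjusted p = 0.303).

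Of the peptide exchange factors, H2-DMa did not pass. Its 1422527_at read 9.20, 9.24, 9.79 and 9.41 in knockout samples, against 8.95, 8.27, 8.44, 8.98 and 8.44 in wildtype samples. The groups did not overlap, but WT1 and WT4 came within 0.25 of KO1, and the difference was 0.83 (SE 0.28, 1.78-fold, adjusted p = 0.101). Within batch 1 it was 0.25 and within batch 2 it was 1.21, and without WT1 or KO1 it passed (adjusted p = 0.0400). Without WT2 only the batch 1 difference of 0.25 was left, and it did not pass. 1459872_x_at read 5.89 to 6.43 in knockout and 5.54 to 6.17 in wildtype samples, overlapping, with a difference of 0.31 (SE 0.26, adjusted p = 0.459).

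The chains of H2-DO, which restrains H2-DM, had positive differences in both batches, and neither passed in the fit over all probe sets. H2-Oa read 8.13, 7.94, 8.54 and 8.64 in knockout samples, against 7.61, 7.02, 7.02, 7.84 and 7.10 in wildtype samples, a difference of 1.02 (SE 0.32, 2.02-fold, adjusted p = 0.088). The groups did not overlap, and the difference was 0.52 within batch 1 and 1.35 within batch 2. Without WT2 only the 0.52 of batch 1 was left, and it did not pass. H2-Ob read 8.68, 8.43, 10.34 and 8.82 in knockout samples, against 7.40, 6.58, 7.43, 6.65 and 6.82 in wildtype samples. KO3 stood far above the other knockout arrays, which were themselves all above the wildtype arrays. The difference was 2.08, with an SE of 0.54 (adjusted p = 0.0552). It was 1.28 within batch 1 and 2.61 within batch 2, and it passed without WT1, KO1, KO2 or KO3, without KO3 at 1.72 (adjusted p = 0.0372). Without WT2 only the batch 1 difference of 1.28 was left, and it did not pass.

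**Figure D2:**
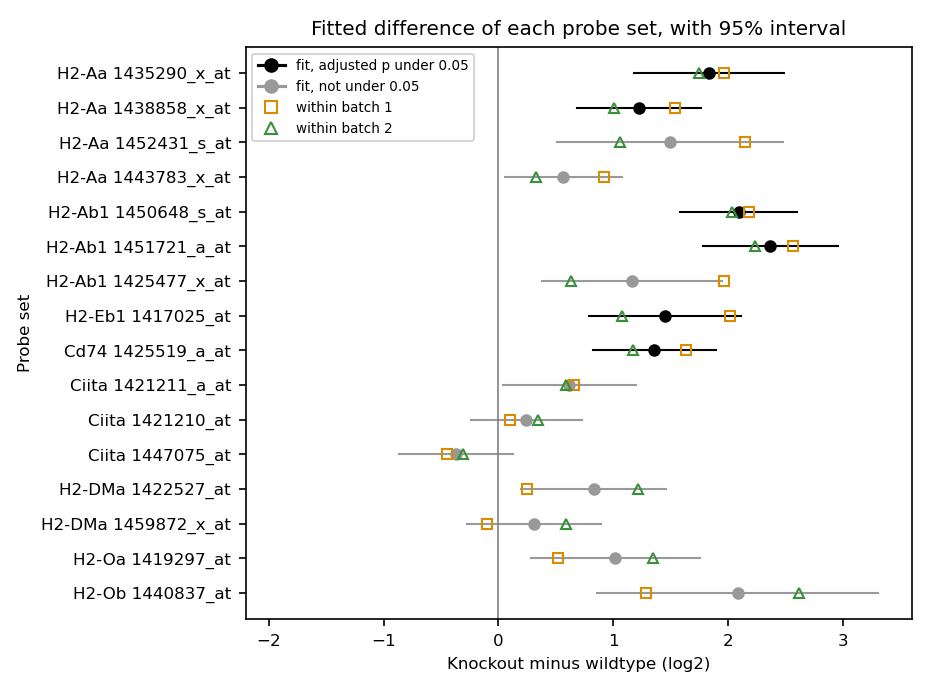
Fitted log2 difference, Utx knockout minus Utx wildtype, of each class II probe set with its 95% interval, and the differences within batch 1 and within batch 2 as separate markers. The 2 H2-Ab1 probe sets at 2.09 and 2.37 have the batches close together, while H2-Ob, H2-Oa and H2-DMa are lower in batch 1 than in batch 2.

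With 1 probe set per gene, that of highest mean, and 14524 genes tested, 5 of the 8 genes were called higher and 0 lower, against 7.88% of all genes called higher and 3.37% lower. They were H2-Aa (adjusted p = 0.00867), H2-Ab1 (0.00292), H2-Eb1 (0.0188), Cd74 (0.0118) and H2-Ob (0.0434). Ciita (0.143), H2-DMa (0.0885) and H2-Oa (0.0761) were not called. The call of H2-Ob was lost without WT2 (1.28, adjusted p = 0.519), WT3 (0.0595), WT4 (0.073), WT5 (0.0705) or KO4 (2.15, 0.0671), and that of H2-Eb1 without WT1 or KO1 (0.0667). The median difference of the 8 genes was 1.40 on the log2 scale, against 0.11 over all genes tested, and all 8 were positive.

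The difference was not the same on every knockout array. Averaged over the 16 probe sets and set against the wildtype mean, it was 1.21 in KO1, 0.87 in KO2, 1.48 in KO3 and 0.98 in KO4, against 0.01 in WT1, 0.01 in WT2, -0.04 in WT3, 0.22 in WT4 and -0.20 in WT5. Among the 6 called probe sets, KO3 was the highest knockout array in 5 and KO1 in 1, and KO2 was the lowest in 5 and KO4 in 1. In the wildtype group WT5 was lowest in 5 of the 6. The genotype difference itself differed between batch 2 and batch 1 for 0 of the 16 probe sets in limma's interaction test, which called 0.02% of all probe sets. At an unadjusted p under 0.05 it marked 1, the H2-Ab1 probe set 1425477_x_at (adjusted p = 0.365). Of all 45037 probe sets it marked 2717 in the positive and 3193 in the negative direction at that threshold.

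Other class II chain genes, and the pathway lists after them, were read from the gene-level fit, which called 7.88% of all genes higher and 3.37% lower. H2-DMb2, whose product pairs with H2-DMa, read 10.31, 10.22, 11.16 and 10.63 in knockout samples, against 8.34, 7.75, 8.14, 8.49 and 7.54 in wildtype samples. The groups were apart by more than 1 log2 unit, and the difference was 2.54 (SE 0.36, 5.83-fold, adjusted p = 0.00607). Without WT2 it was 1.97 and did not pass (adjusted p = 0.0674). H2-Eb2, a further E-type beta chain gene, had 0.89 (adjusted p = 0.0851). H2-Ea, the E alpha chain, ran the other way at 4.66 to 4.86 in knockout and 4.87 to 5.28 in wildtype samples, with a difference of -0.36 (adjusted p = 0.186). H2-Ea-ps has no value here. Of the 3 tested, 1 rose and 0 fell, with a median difference of 0.89, which was 0.57 with 0 called without WT2.

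The factors that bind the X and Y boxes shown above were 7 genes, of which 3 were called higher and 0 lower, with a median difference of 0.62. Creb1 had a difference of 0.94 (SE 0.21, adjusted p = 0.0283), from levels of 10.79, 10.74, 10.97 and 11.16 in knockout samples, against 10.12, 9.83, 10.10, 9.72 and 10.21 in wildtype samples. The NF-Y subunits Nfya (0.62, adjusted p = 0.037) and Nfyb (0.63, adjusted p = 0.0359) were also called, and Nfyc was not (0.25, adjusted p = 0.265). These calls were fragile: those of Nfya and Nfyb were each lost in 8 of the 9 fits that leave out 1 array, all but the one without KO2, and that of Creb1 without WT2, WT3 or KO3. With quantile normalization Nfya was not called. Without WT2, 0 of the 7 were called and the median was 0.30. Among the RFX subunits Rfx5 had 0.35 (adjusted p = 0.181), Rfxap 0.71 (0.155) and Rfxank -0.22 (0.403).

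Genes upstream of Ciita gave 1 called higher of 8 tested and 0 lower, where 7.88% of all genes were called higher. Their median difference was 0.21, against 0.11 over all genes, and it was -0.13 without WT2. The called gene was Ifngr2, a chain of the interferon gamma receptor (0.85, adjusted p = 0.0279), whose call was lost in 7 of the 9 fits that leave out 1 array, all but those without WT4 or KO2. Irf1, a transcription factor induced by interferon gamma, had -0.47 (adjusted p = 0.138), and Irf4 had 0.76 (0.198). Of the 6 endolysosomal genes, which cut antigen or Cd74 and reduce its disulfides, 0 passed in the limma fit (0 higher and 1 lower at an unadjusted p under 0.05) and the median difference was 0.11. At that unadjusted threshold, 2909 of all 14524 genes were higher and 1561 lower. Ctsd, an aspartic protease, had -0.62 (adjusted p = 0.0586), and after quantile normalization or without KO2 the list had 1 gene called lower. Of the others, Ctsl, a cysteine protease, had 0.55 (0.235), Ctss, which trims Cd74 in antigen-presenting cells, had 0.09, and Ifi30, a thiol reductase, had 0.04.

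Of 6 genes for class II turnover at the surface and for partner molecules, 1 rose and 0 fell, with a median difference of 0.40, and the median was 1.003 without WT2. Cd83, known to keep class II at the surface by opposing the ubiquitin ligase Marchf1, read 9.37, 9.29, 10.01 and 8.54 in knockout samples, against 7.52, 7.51, 7.56, 7.68 and 7.41 in wildtype samples. The groups were apart, and the difference was 1.80 (SE 0.35, 3.49-fold, adjusted p = 0.0176), which did not pass without WT2 (adjusted p = 0.111). Marchf1 had 0.83 (adjusted p = 0.135).

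Most class I presentation genes had small negative differences. Of 13 tested, 0 were called in either direction by limma (0 higher and 3 lower at an unadjusted p under 0.05), 3 differences were positive, and the median was -0.31, against 0.11 over all genes. It kept its sign with quantile normalization (-0.30), with each array centred on its median (-0.27) and without any 1 array (-0.41 to -0.15). Without KO2, 2 were called lower, and without WT2, 1 was. Without WT1 or KO1, 6 of the 13 were positive. In the reported fit, 2909 of all 14524 genes were higher and 1561 lower at an unadjusted p under 0.05. The class I heavy chains H2-K1 (-0.53, adjusted p = 0.0681) and H2-D1 (-0.55, adjusted p = 0.0604), Pdia3 of the loading complex (-0.60, adjusted p = 0.0917) and their light chain B2m (-0.31, adjusted p = 0.204) all had negative differences. The probe sets of H2-K1 and H2-D1 also carry _x_at and read nearly alike, at 12.23 and 12.29 in KO1 and 12.97 and 13.00 in WT1. Whether they measure these genes apart was not tested.

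**Figure D3:**
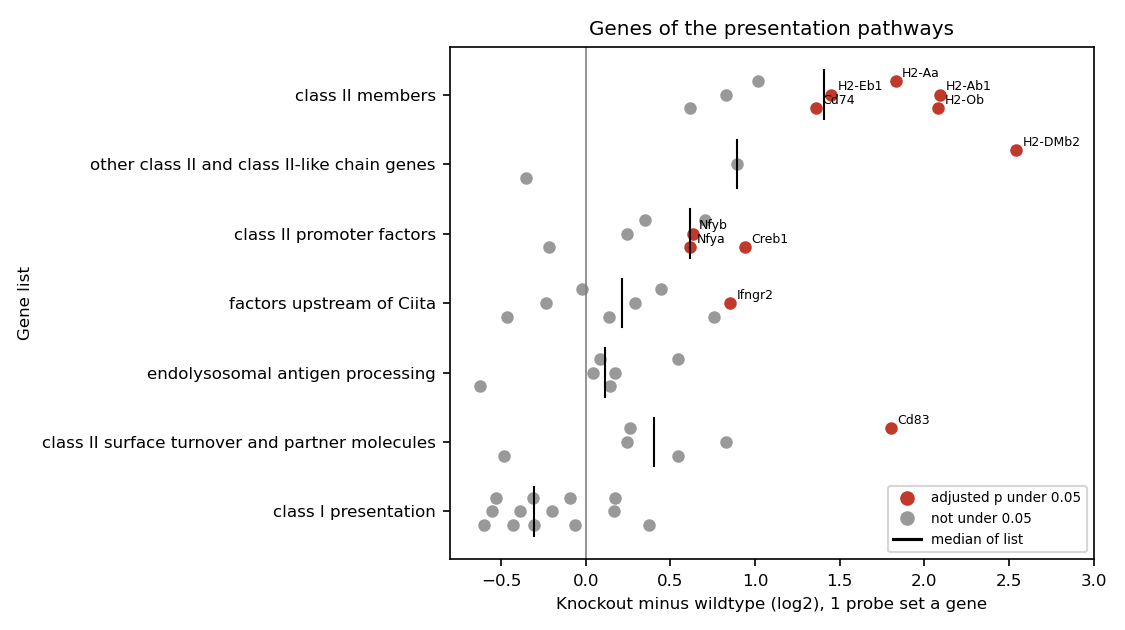
Gene-level log2 difference, Utx knockout minus Utx wildtype, of the class II genes and of each pathway list, 1 point per gene, red where the limma adjusted p is under 0.05, with a tick at the list's median. The class II genes have their median at 1.40 and the class I genes at -0.31.

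Markers of other cells known for class II were read in the same fit. Over all genes it called 7.88% higher and 3.37% lower, with a median difference of 0.11. Of 10 macrophage markers measured, 9 were tested in the gene-level fit, all 9 had positive differences, and 3 were called higher and 0 lower (median 1.29). Their summed linear level was 1577 to 3026 in knockout samples, against 459 to 719.5 in wildtype samples. Csf1r, the receptor for the macrophage growth factor, read 8.31, 8.00, 8.75 and 9.40 in knockout samples, against 5.13, 4.08, 4.73, 5.22 and 3.57 in wildtype samples, a difference of 4.05 (SE 0.55, adjusted p = 0.00535). Cd68 (1.54, adjusted p = 0.0133) and Lyz2 (1.77, adjusted p = 0.0218), of lysosomes and of myeloid cells, were also called. Leaving out WT2 ended the call of Csf1r (adjusted p = 0.0584), and leaving out WT1 or KO1 that of Lyz2 (0.0725). The median was 0.83 without WT1 or KO1, with 8 of 9 positive and 2 called, and 2.07 without WT2. Cd14 was under the level filter.

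Of 9 B cell markers, 7 had positive differences and 2 were called higher and 0 lower (median 1.18), and 0 were called without WT2. Their summed level was 1432 to 2989 in knockout samples, against 849 to 1228 in wildtype samples. The called genes were the antigen receptor chains Cd79a (1.78, adjusted p = 0.0156) and Cd79b (1.60, adjusted p = 0.0181), at 0.147 and 0.122 without WT2. Next by p came Cd22, an inhibitory receptor (1.43, adjusted p = 0.0543), and Fcer2a, a low-affinity receptor for IgE (1.21, adjusted p = 0.0737). At an unadjusted p under 0.05, 5 of the 9 were higher and 0 lower, against 2909 higher and 1561 lower of all 14524 genes. Without WT1 or KO1 the median of the 9 was 0.65.

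Of 9 dendritic cell markers measured, 7 were tested, 4 of them positive, and 1 was called higher and 0 lower (median 0.04), with a summed level of 751 to 970.4 in knockout samples, against 572 to 665 in wildtype samples. The called gene was Ccr7, a chemokine receptor also of T cells (0.93, adjusted p = 0.0461), and Itgax, which encodes CD11c, had 0.93 (adjusted p = 0.159). The call of Ccr7 was lost in 7 of the 9 fits that leave out 1 array. Clec9a has no value here, and Xcr1 and Cd209a were under the level filter. Of 8 thymic epithelial markers tested, 6 were positive and 1 was called, Ccl25 (1.10, adjusted p = 0.0307). For both lists, the share of all genes called higher was 7.88%. The epithelial median was 0.11, as over all genes. Their summed level was 1653 to 1869 in knockout samples, against 1526 to 1766 in wildtype samples. The call of Ccl25 was lost in 4 of the 9, without WT2, WT4, WT5 or KO3. Krt14 and Psmb11 were under the level filter.

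Markers of thymocytes and T cells differed as well, in the fit that called 7.88% of all genes higher and 3.37% lower. Of 9 markers of double-positive thymocytes, 7 were called higher and 0 lower (median 1.34), Ptcra by 2.17 and Arpp21 by 2.24, with a summed level of 32202 to 47651 in knockout samples, against 16140.0 to 23896 in wildtype samples. Of 9 T and iNKT cell markers, 1 was called higher, Thy1 (0.89), and 2 lower, Tbx21 (-1.08) and Il2rb (-1.01), with a median of -0.14. The 7 became 4 without WT1 or KO1, with a median of 0.80, while the calls of Thy1, Tbx21 and Il2rb were lost in 8, 6 and 3 of the 9 fits that leave out 1 array. Lck has no value here. The part of any of these cells in the class II differences was not tested.

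**Figure D4:**
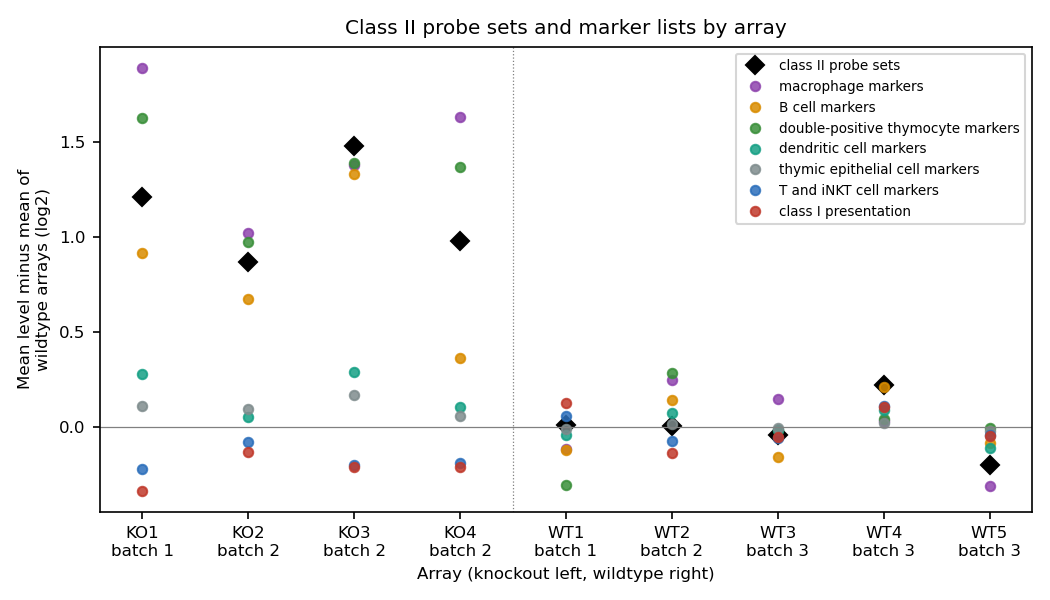
Mean log2 level of the class II probe sets, of each marker list and of the class I genes on each array, minus its mean over the wildtype arrays, with the 4 Utx knockout arrays left of the 5 Utx wildtype arrays. The class II mean is highest in KO3 at 1.48 and the macrophage mean in KO1 at 1.89, while the dendritic cell mean stays between 0.05 and 0.29 in knockout arrays.

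Across the knockout arrays the lists did not share one order. The mean of the macrophage markers, set against wildtype, was 1.89 in KO1, 1.02 in KO2, 1.38 in KO3 and 1.63 in KO4, and that of the B cell markers 0.92, 0.67, 1.33 and 0.36 on the same arrays. KO2 was thus low for class II and macrophage markers, while KO4 was high for macrophage markers and lowest for B cell markers. The double-positive thymocyte mean was 1.62 in KO1, 0.97 in KO2, 1.39 in KO3 and 1.37 in KO4. The dendritic cell marker mean was 0.28 in KO1, 0.05 in KO2, 0.29 in KO3 and 0.11 in KO4, the same order as the class II mean.

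The genes whose pattern over the 9 arrays was most like the mean standardised level of H2-Aa, H2-Ab1, H2-Eb1 and Cd74 were chosen by Pearson's r, a likeness that the shared genotype difference largely sets and that is given without a test. The 8 closest were Hexim2 and Cd1d1 (r = 0.993 each), Ly86, Nim1k and Rpa3 (0.989 each), Kif20a (0.987), and Mad2l1 and Pbk (0.986 each). Cd1d1 encodes the molecule that presents lipids to iNKT cells. It read 9.77, 9.52, 9.83 and 9.55 in knockout samples, against 9.04, 9.13, 9.12, 9.13 and 9.04 in wildtype samples, a gap between the groups with a difference of 0.60 (SE 0.16). Ly86, the MD-1 partner of an immune receptor of B cells and myeloid cells, had a difference of 1.87 (SE 0.27). Kif20a, Mad2l1 and Pbk, known from mitosis, had 1.64, 1.08 and 2.13.

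As to the arrays, the medians of all probe sets were 5.97 to 6.09 (log2), and the interquartile ranges were 3.80 to 4.29 in knockout and 3.45 to 3.84 in wildtype samples. The 4 probe sets of the targeted gene, Kdm6a, had differences of -0.01, -0.46, -0.23 and 0.52 (adjusted p = 0.977, 0.234, 0.673 and 0.129). The deleted part of the gene is not named by the labels, so these probe sets do not check the genotypes.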

How the data were processed

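The authors deposited log2 levels of each probe set on each array, computed with RMA (no version named), per the submitters' processing notes. The interquartile ranges of the arrays differ, and the notes name no later step. The deviations of KO1 and WT1 from their group means correlated at -0.92. Whether the values had been adjusted for batch before deposit was not tested, and the p-values assume that they had not. Per the labels' protocols, total RNA of sorted cells was amplified and biotin-labelled. Precision is set by how many arrays there are, since arrays have no depth.

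Gene names came from GEO's platform annotation: 34945 had 1 gene, 932 several, 9160 none, and 64 were controls. Probe sets with several genes were not used, among them 3 of these genes. The test was limma 3.58.1 (R 4.3.3), lmFit and eBayes on all 9 arrays with genotype and batch (3 levels), two-sided, Benjamini-Hochberg adjusted over all 45037 probe sets. Batch 3 holds only wildtype, so differences were taken within batches 1 and 2, with 5 residual and 3.57 prior degrees of freedom. Pathway and marker lists were read in a fit of 14524 genes, 1 probe set each, with a mean above the 25th percentile (4.54, log2). Summed levels add 2 to the power of the log2 value over the measured genes of a list. The fit with batch was also run on simulated data with independent noise on each array. That run does not cover arrays whose deviations correlate, as those of KO1 and WT1 do. Alternatives were no batch term, batch as a random block, the replicate number as a block, other scalings, filters, eBayes settings and thresholds, array weights and leaving out arrays. All probe sets of the genes are named, and of each list up to 4 genes of smallest p, or any gene of a list of 7 or fewer. The members and lists were chosen with earlier results of these data known.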

Additional observations from a re-analysis of the deposited data

How the results depend on the processing

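The size of the class II difference was steadier than its calls. The median over the 16 probe sets, 1.19, was 1.03 to 1.41 over the alternatives that kept all 16. Part of this steadiness was fixed in advance. Batch 3 holds wildtype only, so leaving out any of its arrays could not move the median, and neither could the eBayes settings. Leaving out WT1, KO1 or both is 1 and the same fit, with a median of 1.07. With the level filters it was 1.29 over the 14 left at the 25th percentile and 1.45 over the 11 left at the 50th. Of the 16, 6 were called in the fit with batch as a factor, 13 with no batch term, 15 with batch as a random block (14 higher, 1 lower), 4 with quantile normalization, 2 with array weights, 2 without the 3 wildtype arrays of batch 3, 2 at an adjusted p of 0.01 and 10 at 0.1. The share of all probe sets called moved too: 6.4% in the fit reported, 39.4% with no batch term, 66% with the random block, 1.16% with array weights and 0.855% without the 3 wildtype arrays of batch 3. Leaving out 1 array gave 3 to 7 called, 3 without WT2, and 4 to 5 of the 8 genes. Of those genes 5 were called in the reported fit, 4 with quantile normalization, 8 with no batch term, 8 with the random block, 2 with array weights and 3 without the wildtype arrays of batch 3. H2-Ab1 1450648_s_at and 1451721_a_at were called under every alternative run. The difference of H2-DMa 1459872_x_at reversed to -0.10 without WT2, the low end of a range to 0.59 when 1 array is left out. Without WT2 genotypes are compared only in batch 1, so that value is KO1 minus WT1. The random block rests on a within-batch correlation of -0.32. With the replicate block in place of batch, 12 probe sets were called (24.1% of all probe sets), but the numbers do not pair all samples: numbers 1 and 2 each lie in 1 batch, the others do not, and deviations from the group means of same-numbered arrays correlated at -0.92, 0.07, -0.01 and 0.11, and no knockout array correlated best with its own number. The batch comparison rests on 1 wildtype array in each of batches 1 and 2, and no value separates cells of a type from RNA per cell.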
